A study of Mus musculus with 10 samples.

Results

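The Kcnq1 imprinted cluster lies on distal chromosome 7 of the mouse and was followed through 8 genes: Kcnq1, Kcnq1ot1, Cdkn1c, Phlda2, Slc22a18, Tssc4, Cd81 and Ascl2. Its members are the ATAC-seq peaks whose summit lay in 1 of these genes or within 5 kb of it, 163 of the 423900 peaks of 4 deposited lists. Merging peaks that overlapped between lists gave 58 separate loci. ATAC-seq marks open chromatin by the places where the Tn5 transposase inserts sequencing adapters. The groups were Smchd1 del/del female lines (3 libraries), Smchd1 fl/fl female lines (3), Smchd1 del/del male lines (2) and Smchd1 fl/fl male lines (2), called deleted females, control females, deleted males and control males here. All were C57BL/6 neural stem cells derived at E14.5 from embryos with floxed Smchd1. The stated protocol, the same for every sample, has a Cre retrovirus with a puromycin marker, selection from 24 h and harvest at 7 days, and does not say what the fl/fl cells were given.

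In this cluster Kcnq1ot1, a long noncoding RNA, starts inside an intron of Kcnq1 and is transcribed in the opposite direction to it. Its start region is the imprinting control region of the cluster and carries DNA methylation on the maternal copy, so the RNA is made from the paternal copy, where it represses neighbouring genes in cis. Kcnq1, Cdkn1c, Slc22a18 and Phlda2 are maternally expressed in embryo and placenta, while Tssc4, Cd81 and Ascl2 are known mainly for imprinting in the placenta. Smchd1 is a chromatin protein of the SMC family that acts on the inactive X and at several imprinted clusters. The lists hold no allele information, so the maternal and the paternal copy cannot be told apart in any value given here.

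A single list was called for each group on all its libraries together. There is therefore no spread between replicates, and no difference between groups could be tested. The lists rested on 139318421 tags in deleted females, 144613215 in control females, 74674218 in deleted males and 91734730 in control males, so both deleted lists were shallower than their controls. To make them comparable, every list was cut to its 88159 strongest peaks by the −log10 q that the authors deposited, and rank 1 was the strongest. The last peak kept had a −log10 q of 4.27 in deleted females, 6.59 in control females, 1.39 in deleted males and 4.52 in control males. The male samples carry a description that says female, against a title and a sex field that say male. Around Firre, an X-linked noncoding gene, there were 21 peaks in deleted females, 24 in control females and 1 in each male list, which goes with the titles. Of 8 neural stem cell markers, 7 had a peak within 1 kb of a gene end in every list, with ranks between 11538 and 37130. Pax6 had none there, but 3 to 5 peaks in the gene and 5 kb on each side. Such end peaks were found at 0 of 4 markers of microglia and blood in every list. They were found at 3 of 4 neuron markers in every list, with ranks between 306 and 38424. Those of Syt1, at 306 to 990, and Snap25, at 5536 to 7215, stood above all end peaks of the stem cell markers. Fibroblast markers had end peaks at 4 of 4 in both deleted lists and 3 of 4 in both control lists, with ranks between 28290 and 75095. Of 3 endothelial markers, 2 had one in deleted females, 2 in control females, 2 in deleted males and 1 in control males. These endothelial end peaks ranked between 15797 and 74955. What these other cell types contribute was not tested. Smchd1 had a peak at its own end in all 4 lists, which does not check the deletion, since the sources used here do not say which part of the gene was removed.

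The sequences just upstream of 4 starts are shown because these starts span the range of accessibility in the cluster, from Kcnq1ot1, with the strongest peak, to Slc22a18, with no peak within 1 kb of its start in any list. They are the 250 bases before each start in RefSeq's table for GRCm38.p6, which held a window for 6 of the 8 genes. Positions are chr7:143296548-143296797 on the minus strand for Kcnq1ot1, chr7:143052500-143052749 on the plus strand for Cd81, chr7:143502525-143502774 on the minus strand for Phlda2 and chr7:143473539-143473788 on the plus strand for Slc22a18. Each is printed 5′ to 3′ along its gene. Capitals mark matches, on either strand, to the CCAAT box, to the GC box with the letters GGGCGG, and to the TATA box with the letters TATAAA. No 2 of the matches in these windows overlap.
Kcnq1ot1: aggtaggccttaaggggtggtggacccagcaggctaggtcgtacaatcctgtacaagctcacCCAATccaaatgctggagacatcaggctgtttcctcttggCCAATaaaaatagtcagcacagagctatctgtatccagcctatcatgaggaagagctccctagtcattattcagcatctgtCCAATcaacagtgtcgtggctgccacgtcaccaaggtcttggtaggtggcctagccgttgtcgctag
Cd81: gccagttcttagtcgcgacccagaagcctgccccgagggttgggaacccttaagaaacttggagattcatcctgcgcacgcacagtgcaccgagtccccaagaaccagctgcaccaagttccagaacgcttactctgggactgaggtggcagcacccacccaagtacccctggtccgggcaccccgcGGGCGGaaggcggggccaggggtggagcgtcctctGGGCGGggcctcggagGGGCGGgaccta
Phlda2: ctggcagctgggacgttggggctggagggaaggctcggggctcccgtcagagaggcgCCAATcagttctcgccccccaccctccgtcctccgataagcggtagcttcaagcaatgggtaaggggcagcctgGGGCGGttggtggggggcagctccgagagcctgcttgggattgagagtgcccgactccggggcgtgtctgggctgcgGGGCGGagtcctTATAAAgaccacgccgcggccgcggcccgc
Slc22a18: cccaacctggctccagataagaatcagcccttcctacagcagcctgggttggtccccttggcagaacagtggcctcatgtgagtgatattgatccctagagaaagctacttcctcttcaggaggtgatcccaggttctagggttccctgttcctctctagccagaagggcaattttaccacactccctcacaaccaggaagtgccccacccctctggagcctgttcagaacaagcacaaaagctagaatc
The Kcnq1ot1 window held 3 CCAAT boxes, a motif known to be bound by NF-Y, at 63 to 67, 144 to 148 and 184 to 188 bases before the start. At least as many were found in 2.79% of 32851 promoter windows, and 1 or more in 33.8%. The Cd81 window held 3 GC boxes; 8.47% of the windows held at least as many, and 32.7% held 1 or more. The Phlda2 window held 2 GC boxes, 1 CCAAT box and a TATA box 25 to 30 bases before its start, and 12.4% of the windows held a TATA box. The Slc22a18 window had no match to any motif searched. It had 0 CpG, against 5 in the Kcnq1ot1 window, 16 in that of Cd81 and 21 in that of Phlda2, and the median over all windows was 6. Of the members not shown, Ascl2 had 3 CCAAT boxes and 1 GC box with 19 CpG, and Tssc4 had 1 CCAAT box with 17 CpG. Motifs of CTCF, NRF1 and NFI were searched too, with the YY1 letters AANATGGC, found in 3.91% of the windows, and the CRE letters TGACGTCA, found in 1.55%. None of the 6 member windows held any of these. A match describes letters and not a bound site, and a missing match says nothing about the factor.

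The strongest peak of the cluster in all 4 lists was at the start of Kcnq1ot1 (chromosome 7, 143213111 to 143296547, minus strand, mm10). The peak ranked 3576 in deleted females, against 4956 in control females, and 3188 in deleted males, against 2835 in control males, so it lay among the top 3.22% to 5.62% of each list. Its fold enrichment, the authors' ratio over the local background, was 8.21 in deleted and 7.78 in control females, and 10.2 in deleted and 10.1 in control males. These bulk values cannot tell apart more cells with an open site and more opening per cell. The summit lay at 143296598 in deleted females, 143296596 in control females, 143296598 in deleted males and 143296597 in control males, a range of 2 bp. That is 50 bases before the start, within the window printed above and between the start and the nearest CCAAT box. Over the 25 loci found in all 4 deposited lists the range of summits had a median of 34 bp and reached 332 bp. The log2 ratio of control rank to deleted rank, which is positive where the deleted list ranks a peak higher, was 0.47 in females and -0.17 in males. The sexes ran in opposite directions, and neither reached 2-fold, the size counted as moved here. Ranked by fold enrichment the ratio was 0.94 in females and -0.015 in males, and by pileup 0.26 and -0.16. Its size thus depends on the ranking value. A second, much weaker peak 0.792 kb past the start ranked 82663 in control females and 78561 in control males and was in neither deleted list.

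**Figure D1:**
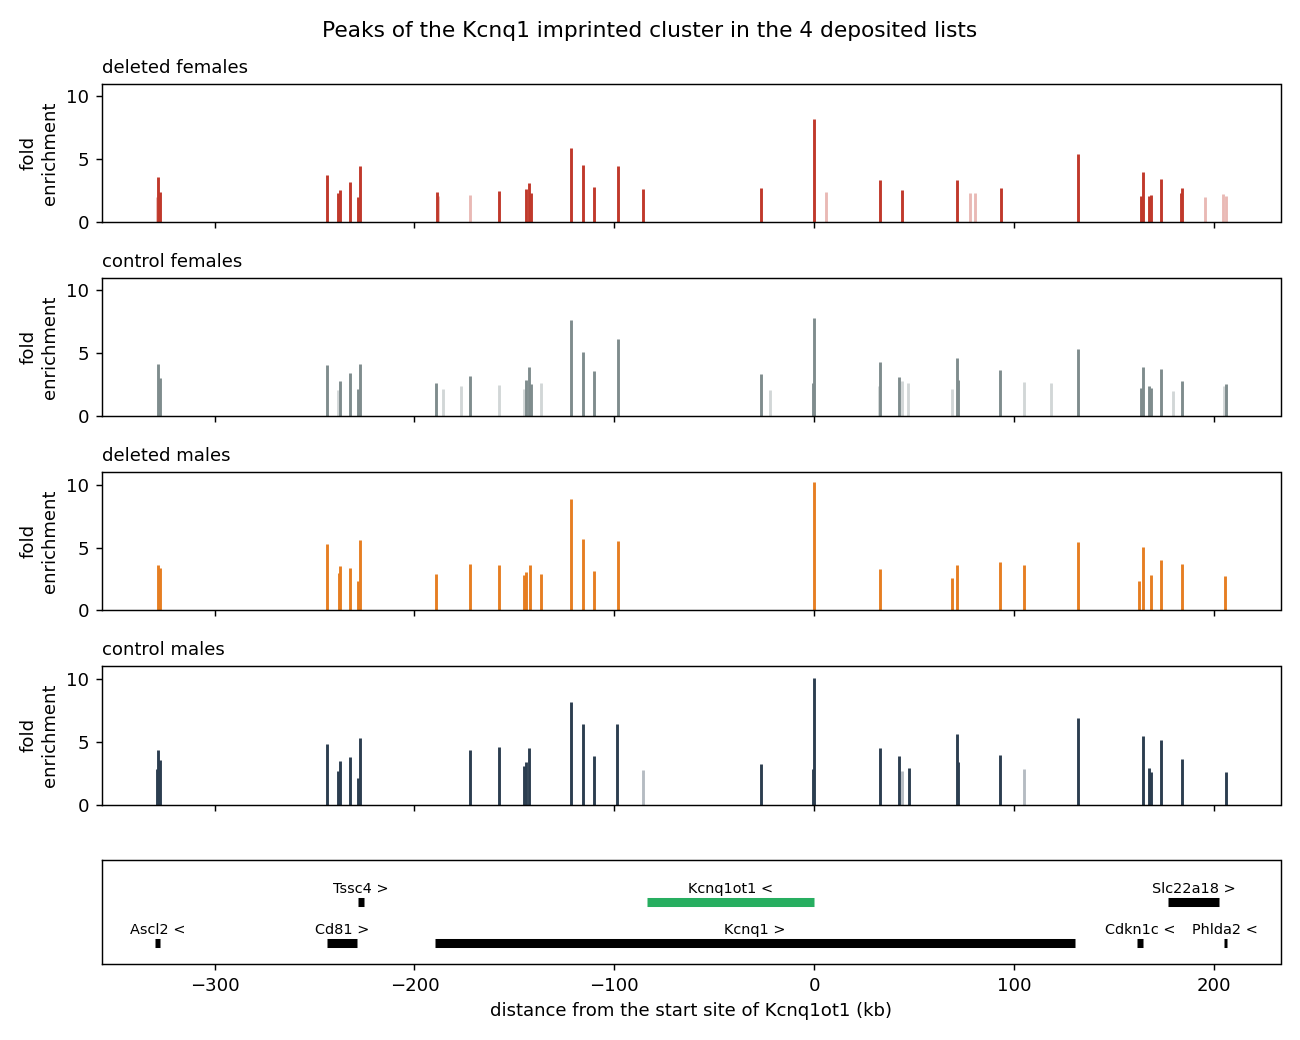
Fold enrichment of the strongest peak of each locus (vertical lines, the authors' value) against the distance in kb from the start of Kcnq1ot1, in deleted females, control females, deleted males and control males. Pale lines are peaks outside the 88159 strongest, and bars at the bottom are the 8 genes with their direction; the line at 0 is the tallest of each list, at 8.21, 7.78, 10.2 and 10.1, and few lines stand over the rest of Kcnq1ot1.

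The transcribed span of Kcnq1ot1 held few peaks. In its 82.4 kb beyond 1 kb from the start there was 1 peak in deleted females, 1 in control females, 0 in deleted males and 1 in control males. This peak, 26.6 kb into the gene, was weak, with ranks of 83590 in deleted females, 72397 in control females and 80820 in control males. The density was thus 1.21 per 100 kb in deleted females, 1.21 in control females, 0 in deleted males and 1.21 in control males. In the 236 kb of Kcnq1 outside Kcnq1ot1 it was 6.79 in deleted females, 6.36 in control females, 6.79 in deleted males and 6.36 in control males. The bodies of autosomal protein-coding genes, counted with the peaks at their starts, held 4.42 to 4.55 peaks per 100 kb. The autosomes as a whole, counted to the last annotated gene, held 3.47 to 3.5. Whether the Kcnq1ot1 span falls below these densities was not tested. Deleted and control lists differed by at most 1 peak in this span. With so few peaks there, a loss could not have been seen.

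Kcnq1 (143106877 to 143427050, plus strand) encodes a voltage-gated potassium channel subunit of heart and epithelia. It had only a weak peak at its own start, 0.445 kb into the gene, with ranks of 80976 in deleted females, 86524 in control females and 75899 in deleted males, and none in control males. Its body holds the Kcnq1ot1 start peak described above, and its other strong peaks lay inside the gene or just past its end. The leading one inside the gene and outside Kcnq1ot1 and its start, 67.9 kb in, from 143174520 to 143175114, ranked 12151 in deleted and 6770 in control females, a log2 rank ratio of -0.84. In males it ranked 8695 in the deleted and 9965 in the control list, a ratio of 0.20, so the sexes ran in opposite directions. The peak 74.1 kb in ranked 24443 in deleted and 25538 in control females, and 23594 in deleted and 20811 in control males. The peak 91.5 kb in, from 143197787 to 143198734, ranked 26027 in deleted and 17219 in control females, and 24573 in deleted and 20710 in control males, lower in both deleted lists. A peak 1.65 kb beyond the end of Kcnq1, named after its values were seen, ranked 12431 in deleted and 17450 in control females, and 22026 in deleted and 11294 in control males. Its log2 rank ratios were 0.49 in females and -0.96 in males.

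Cdkn1c (143458339 to 143461059, minus strand) encodes p57Kip2, an inhibitor of cyclin-dependent kinases, and had a broad peak at its start in every list. The peak ranked 20765 in deleted and 26286 in control females, and 18579 in deleted and 17479 in control males, with log2 rank ratios of 0.34 in females and -0.09 in males. A weaker peak 4.05 kb before the start ranked higher in both deleted lists, at 76903 in deleted and 86177 in control females, and 59915 in deleted and 74340 in control males. Another, 3.03 kb before the start, ranked 84088 in deleted and 68305 in control females, was not in the deleted male list and ranked 58602 in control males. Both of these weak peaks lie in the annotated gene Gm33663. Upstream of Cdkn1c, 1 peak thus stood higher and 1 lower in the deleted lists.

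Slc22a18 (143473726 to 143499334, plus strand) encodes a membrane protein of a transporter family. With 5 kb on each side it had 3 peaks in each of the 4 lists, but this reach takes in Phlda2. In both control lists and in deleted males, 1 of the 3 was a peak of Phlda2 described below. In deleted females 1 of the 3 lay 6.59 kb into Slc22a18, at rank 87398, and was in no other list. The strongest lay 3.65 kb before the start of Slc22a18. It ranked 39672 in deleted and 40411 in control females, and 42052 in deleted and 29021 in control males. The peak 6.91 kb into the gene ranked 63649 in deleted and 68172 in control females, and 49035 in deleted and 56678 in control males. Phlda2 (143501545 to 143503145, minus strand) encodes a pleckstrin-homology protein that limits placental growth. Its start peak, 0.271 kb upstream, lay outside the 88159 strongest in deleted females, where it ranked 96354 in the full list, and at 83098 in control females. It was not in the deleted male list and ranked 86311 in control males. The deleted male list had another peak 0.344 kb past the start at rank 78174, and the full control female list had 1 at 0.755 kb past it, at rank 94377. All peaks of Phlda2 stood near the weak end of the lists, and its window above is the one with the most CpG and a TATA box.

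Tssc4 (143068416 to 143071093, plus strand), in human a factor of spliceosome assembly, had the strongest start peak after that of Kcnq1ot1. It ranked 8579 in deleted and 12475 in control females, and 5883 in deleted and 8476 in control males. It stood higher in both deleted lists, with log2 rank ratios of 0.54 in females and 0.53 in males. When peaks were ranked by pileup, the female ratio was -0.12, so its direction in females depends on the ranking value. The start used for Tssc4 is the promoter start at 143069368, which lies inside the annotated gene. A weaker peak 0.901 kb before that start ranked 77454 in deleted and 71064 in control females, and 60193 in deleted and 82053 in control males. Its log2 rank ratios were -0.12 in females and 0.45 in males, so the sexes ran in opposite directions. Cd81 (143052750 to 143067930, plus strand) encodes a tetraspanin, a membrane-spanning partner of cell surface receptors. Its start peak ranked 23323 in deleted and 22061 in control females, and 16358 in deleted and 20915 in control males. A peak 5.77 kb into Cd81 ranked higher in both deleted lists, at 64384 in deleted females and 98577 in the full list of control females, and at 51512 in deleted and 67556 in control males. Ascl2 (142966822 to 142969264, minus strand) encodes a basic helix-loop-helix factor of the trophoblast lineage. A peak 0.956 kb into it ranked 36671 in deleted and 32753 in control females, and 46624 in deleted and 38639 in control males, lower in both deleted lists. The peak at its start, 0.09 kb upstream, ranked 80601 in deleted and 58923 in control females, and 54109 in deleted and 54600 in control males.

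**Figure D2:**
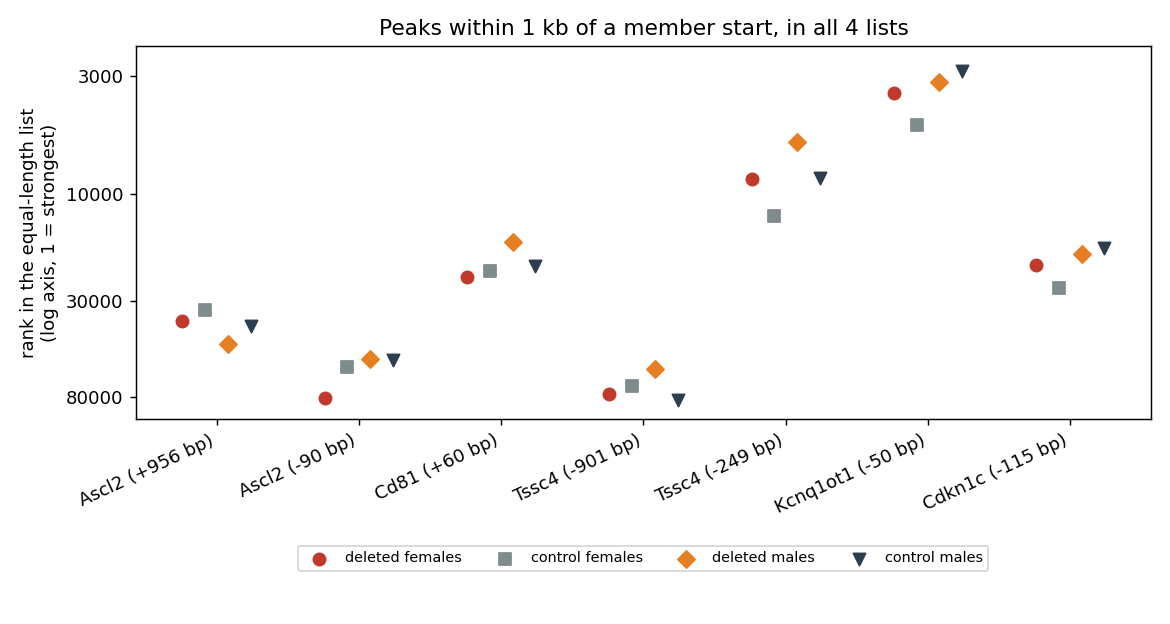
Rank in the equal-length list (log axis, strongest at the top) of the 7 loci within 1 kb of a member start that were in all 4 lists, for deleted females, control females, deleted males and control males; labels give the distance of the summit from the start in bp. Kcnq1ot1 stands highest, between 2835 and 4956, and the upper of the Tssc4 peaks next, between 5883 and 12475.

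Peaks of the cluster were then examined for appearance or disappearance with the deletion, and no member was called in either direction. A gain was a peak among the 44079 strongest of the deleted list that overlapped none of the 88159 of the control list by at least 1 bp, and a loss was the reverse. In females 0 of 11 members were gained, against 1.13% of all peaks tested, and 0 of 14 were lost, against 0.44%. In males 0 of 11 were gained, against 0.837%, and 0 of 14 were lost, against 1.09%. By an approximate rule, 3 divided by the number of peaks, a count of 0 among 11 allows a share of up to 27.3%, and among 14 up to 21.4%. These counts therefore do not set the cluster apart from the background. The same rule between the sexes of 1 genotype called 0 of 11 members in deleted females, against 0.948% of all, 0 of 11 in deleted males, against 0.49%, 0 of 14 in control females, against 0.132%, and 0 of 14 in control males, against 0.111%.

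With all 88159 peaks as candidates, so that weak peaks near the cut count too, the members gained in females were 5 of 34 (14.7%, against 15.3% of all peaks), and those lost were 6 of 33 (18.2%, against 16.9%). In males 6 of 32 were gained (18.8%, against 16.9%) and 8 of 34 were lost (23.5%, against 18.7%). These shares were near the background. The number of member peaks was also close, with 34 in deleted and 33 in control females, a ratio of 1.03 (95% exact binomial interval 0.619 to 1.72). In males it was 32 in the deleted and 34 in the control list, a ratio of 0.941 (0.562 to 1.57). The intervals cover counting error only and take the lists as separate counts, although most peaks are common to them. Members made up 0.0386% of the list in deleted females, 0.0374% in control females, 0.0363% in deleted males and 0.0386% in control males.

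**Figure D3:**
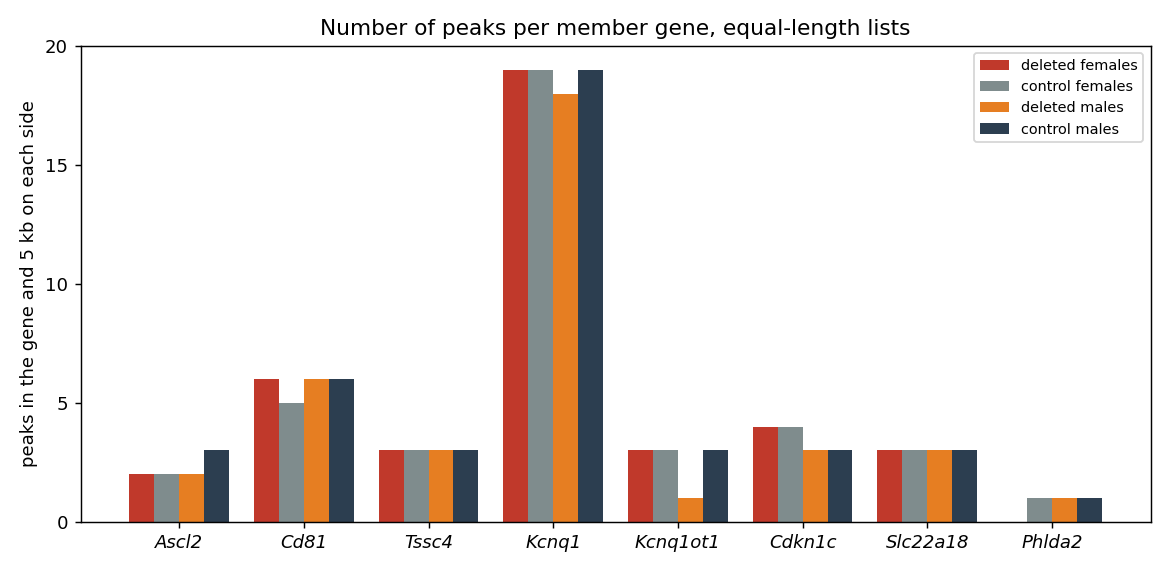
Number of peaks in each member gene and 5 kb on each side in the equal-length lists (bars from 0) for deleted females, control females, deleted males and control males; a peak in reach of 2 genes counts for both. Kcnq1 has 19, 19, 18 and 19 peaks, Kcnq1ot1 3, 3, 1 and 3, and Phlda2 0, 1, 1 and 1.

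Of the 58 loci, 22 were in all 4 equal-length lists, 6 in 3, 7 in 2 and 10 in 1, and 13 came only from the longer deposited lists. Both control lists and neither deleted list held 4 loci, and both deleted lists and neither control list held 0. That is 4 of the 30 members common to the control lists (13.3%, against 5.47% of all peaks common to them), and 0 of the 24 common to the deleted lists, against 4.19%. This count was made after the values had been seen, and it was 2 in place of 4 when peaks were ranked by fold enrichment. Within 1 kb of a gene end it was 2 of 10 for the control lists, against 2.2% of all, and 0 of 8 for the deleted lists, against 2.03%. Farther away it was 2 of 20 for the control lists, against 6.52%, and 0 of 16 for the deleted lists, against 4.93%. The 2 near gene ends were the peak 0.792 kb past the Kcnq1ot1 start and the start peak of Phlda2, which the full list of deleted females still held. The others lay inside Kcnq1. The one 232 kb in ranked 76432 in control females and 59417 in control males, and the one 262 kb in ranked 86025 in control females and 67989 in control males. The locus 262 kb in begins at 143368279, just past a stronger locus of all 4 lists that ends at 143368180. The one 0.792 kb past the Kcnq1ot1 start ends at 143295836, just before the start peak, which begins at 143296003. Whether these 2 are sites of their own was not tested. All 4 loci were weak, and both deleted lists were shallower than their controls. The part of depth in these absences was not tested.

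Peaks present in both lists of a sex were compared by rank, and the medians of the members lay near the background. In females 27 members were matched and their median log2 rank ratio was -0.08, against -0.021 over all 72733 matched peaks, with 18 lower and 9 higher. The female median turned to 0.012 when peaks were ranked by fold enrichment and to 0.027 among the 44079 strongest, so it has no settled direction. In males 26 were matched and the median was -0.129, against 0.004 over all 71015, with 15 lower and 11 higher. In females 0 of 27 stood at least 2-fold higher, against 2.45% of all, and 0 at least 2-fold lower, against 1.95%. In males 0 of 26 stood 2-fold higher, against 2.29%, and 1 stood 2-fold lower, against 2.51%. Lists of the same genotype differed by as much. Deleted females over deleted males gave a member median of -0.16, with 16 of 24 lower, and 0 were 2-fold higher, against 1.99% of all, or 2-fold lower, against 1.44%. Control females over control males gave -0.154, with 20 of 29 lower, and 0 were 2-fold higher, against 1.24%, or 2-fold lower, against 0.997%.

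The single member past 2-fold lay 261 kb into Kcnq1, from 143367703 to 143368180, next to the peak 262 kb in that was found in the control lists alone. It ranked 53592 in deleted and 36023 in control females, and 64193 in deleted and 31398 in control males, so both deleted lists stood below both control lists. Its fold enrichment was 3.36 in deleted and 4.67 in control females, and 3.58 in deleted and 5.58 in control males. The log2 rank ratio was -0.57 in females and -1.03 in males, and by fold enrichment the male ratio was -0.95, short of 2-fold. By pileup, the peak 1.65 kb beyond Kcnq1 passed 2-fold in males as well. Of the 22 loci in all 4 lists, 8 were lower in both sexes, 3 were higher in both and 11 ran in opposite directions. The 5 with the largest mean shift of 1 sign were the peak 261 kb into Kcnq1, the Tssc4 start peak, and the Kcnq1 peaks 91.5 kb, 223 kb and 47.2 kb in. The peak 223 kb in ranked 49780 in deleted and 41211 in control females, and 64805 in deleted and 44522 in control males. The peak 47.2 kb in ranked 44269 in deleted and 36509 in control females, and 44698 in deleted and 35748 in control males. All of these but the Tssc4 peak lie inside Kcnq1 and ranked lower in both deleted lists.

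**Figure D4:**
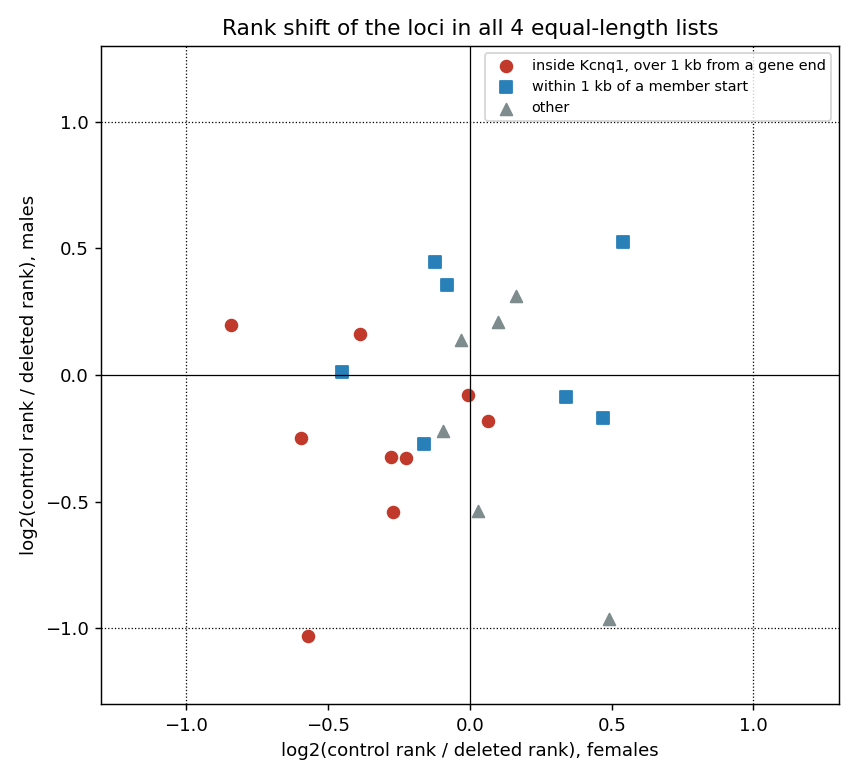
Log2 ratio of control rank to deleted rank in males (vertical axis) against females (horizontal axis) for the 22 loci in all 4 equal-length lists; dotted lines mark 2-fold. Loci inside Kcnq1 and over 1 kb from a gene end (circles) lie mostly at negative values, the lowest in males at -0.57 in females and -1.03 in males, while loci at member starts (squares) lie on both sides of 0.

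The matched peaks inside Kcnq1, outside Kcnq1ot1 and over 1 kb from any gene end were grouped after their values were seen. In deleted females 9 of 10 ranked lower than in control females, with a median of -0.275, and in deleted males 9 of 12 ranked lower than in control males, with a median of -0.198. Among all peaks inside protein-coding genes and over 1 kb from a gene end, 54.7% were lower in females, with a median of -0.046, and 50.2% in males, with a median of -0.002. By pileup 7 of 13 were lower in females, which is close to an even split, and 8 of 12 in males. The medians were -0.15 and -0.103. By fold enrichment 7 of 9 were lower in females and 9 of 13 in males, with medians of -0.399 and -0.285. The shares over all such peaks were computed by −log10 q only, so the counts by pileup and fold enrichment have no background here. These peaks share 1 gene and 1 list per group and are not replicates of each other. Between the sexes the same grouping gave a median of -0.051 for deleted females over deleted males and of -0.092 for control females over control males. Peaks within 1 kb of a member start had no common direction, with 4 of 8 higher in deleted females and 4 of 7 higher in deleted males.

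Another 14 genes near the cluster were counted, chosen by position and not by a shared control region. They include Th, Ins2, Igf2 and H19 on one side and Nap1l4, Cars, Osbpl5, Nadsyn1 and Dhcr7 on the other. Of these genes 12 had a peak in deleted females, 13 in control females, 12 in deleted males and 14 in control males. Among the 44079 strongest they had 18 peaks in deleted females, 20 in control females, 19 in deleted males and 19 in control males. Of these 0 were called gained or lost, against the shares of 0.44% to 1.13% of all peaks given above. That is too few peaks to set these genes apart from the background. The matched peaks of these genes had a median log2 rank ratio of -0.118 in females, with 17 of 28 lower. In males their median was 0.008, with 15 of 30 lower. The lean to lower ranks in females was thus not particular to the members. Around the 7 genes of the Snrpn cluster, another imprinted domain, there were 53 peaks in deleted and 32 in control females, a ratio of 1.66 (1.05 to 2.65), and 49 in deleted and 32 in control males, a ratio of 1.53 (0.961 to 2.47). Around the 4 genes of the Igf2r cluster, which like Kcnq1 has a long noncoding antisense RNA, Airn, there were 18 in deleted and 19 in control females, a ratio of 0.947 (0.469 to 1.91), and 22 in deleted and 15 in control males, a ratio of 1.47 (0.727 to 3.04). All of these intervals overlap those of the Kcnq1 cluster in the same sex. They cover counting error only, so the overlap does not show that the clusters are alike. The median log2 rank ratio of matched peaks was 0.11 in females and 0.111 in males for the Snrpn cluster. It was 0.121 and 0.093 for the Igf2r cluster, against -0.08 and -0.129 for the Kcnq1 cluster. The differences between clusters were not tested.

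Of 49 other imprinted genes with a peak in every list, those whose strongest peak was most like the Kcnq1ot1 start peak were Herc3 and Nap1l5, which share 1 peak, and Gab1. Likeness was the mean absolute difference in log2 rank over the 4 lists, at 0.544 for the shared peak and 0.615 for Gab1. The shared peak ranked 3086 in deleted females, 2723 in control females, 6377 in deleted males and 2650 in control males. The Gab1 peak ranked 2942 in deleted females, 2238 in control females, 2118 in deleted males and 3849 in control males.

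At the edge of the 5 kb reach, the last peaks inside lay 3.92 to 4.05 kb from Cdkn1c, with ranks between 59915 and 86177. The nearest peak outside lay 5.42 to 5.44 kb from Cdkn1c and ranked 36811 in deleted and 50048 in control females, and 43911 in deleted and 44218 in control males.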

How the data were processed

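ATAC-seq peak lists of 10 libraries in 4 groups were used, 1 list per group. The file headers name MACS 2.1.0.20140616, run on 1 alignment for each group with no control sample and a limit of 0.05 on q. Tags were shifted by 75 bp and extended to 150 bp, per the file headers. The build is mm10, and Trim Galore 0.4.0 and Bowtie2 2.2.5 are among the tools, per the submitters' processing notes, which do not give each tool's role. The authors deposited with each peak a pileup, which is a signal height, a fold enrichment, which is a ratio over the local background, and −log10 q. Pileup and −log10 q grow with depth, so ranks in lists of equal length were compared.

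Autosomal, X and Y peaks were kept, and ties in −log10 q were ordered by pileup, then fold enrichment. For rank ratios, peaks were matched where each was the other's largest overlap. Gene ends came from a RefSeq table of GRCm38.p6, the sequence build of mm10, which held all 8 genes. Start sites came from RefSeq's promoter table, and for Kcnq1 and Cdkn1c from the gene end on the side given by their known direction. Named peaks are those within 1 kb of a member's start, called peaks and the 5 largest shifts of 1 sign in both sexes; others named are examples. The members and gene lists were chosen with earlier results of these data known. Calls and matching were tried on a copy of the control female list with noise in −log10 q and some strong peaks removed. Peak positions were left unchanged, so shifted or split peaks and unequal depth were not tried. No p-value was computed. The software was Python 3.11.15 with numpy 2.4.6, pandas 2.3.3, scipy 1.17.1 and, for figures, matplotlib 3.10.9.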

Additional observations from a re-analysis of the deposited data

How the results depend on the processing

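Of the cluster's counts, calls and median shifts under other settings, 99 values stayed within 1.5-fold of those reported and 21 did not. A median passed where the rank ratio it stands for changed by less than 1.5-fold. All medians here were smaller than that limit, so a median could pass with its sign changed. A count of 0 that stayed 0 passed too. The tally is therefore a lenient measure. Among the 44079 strongest peaks the members numbered 11 in deleted females, 14 in control females, 11 in deleted males and 14 in control males, and 0 stood 2-fold lower in males. A limit of at least 10 on −log10 q leaves the lists at unequal lengths. Past it the members numbered 13 in deleted females, 20 in control females, 13 in deleted males and 20 in control males. Every peak past this limit was a candidate there, without the rule that it be among the 44079 strongest. By that looser call 7 were lost in females and 7 in males, and 0 were gained in either sex. The share of all peaks was not computed for it, so these losses have no background to be read against. With all peaks as candidates, 5 were gained and 6 lost in females, and 6 gained and 8 lost in males. Ranked by pileup, 1 was lost in males, 3.03 kb before Cdkn1c, and 2 stood 2-fold lower in males. Ranked by fold enrichment, 0 stood 2-fold lower in males, and 2 rather than 4 were in both control lists alone, a setting added after the values were seen. With 1.5-fold as the limit, 2 stood lower in females and 2 in males. Shares over all peaks were not computed for the rankings by pileup and fold enrichment or for the 1.5-fold limit. The median shift ranged from -0.11 to 0.027 in females, so its sign is not fixed there, and from -0.169 to -0.031 in males. Of the named peaks' ratios that could be computed, 41 stayed within 1.5-fold and 1, that of the Tssc4 start peak in females by pileup, at -0.12, did not. Ranked by fold enrichment, some ratios could not be computed because a list no longer held the peak. These were the female ratios of the Ascl2 and Kcnq1 start peaks and both ratios of the peak 0.901 kb before the Tssc4 start. The cause of these differences was not tested. The deleted male list has the fewest tags, 74674218, and ends at the lowest −log10 q, 1.39, and the part of depth was not tested. No paired analysis was possible because each group is 1 pooled list, and single libraries could not be left out for the same reason.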
